A study of Mus musculus with 8 samples.

Results

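Coding exons that lie far from any transcription start site were examined in mouse mammary tumors treated with the ERRα inhibitor C29, the DNA methyltransferase inhibitor 5-azadC, or both drugs. The members were autosomal cytosines with 10 or more reads in all 8 libraries, inside the coding sequence (CDS) of protein-coding genes of GENCODE M21 and more than 4000 bp from every annotated start site, and a CDS exon was kept when it held 3 or more of them. This rule gave 2390 exons in 1935 genes, out of 54164 regions of all kinds in the whole data set, and they carried 14368 of the 555155 cytosines that passed the read minimum. Another 2125 distant CDS exons held measured cytosines but fewer than 3, and were not kept. The exons had a median length of 222 bp, a median of 4 measured cytosines, and a median distance of 10035 bp from the nearest start site, and 637 of them (26.7%) were the last coding exon of a transcript.

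NIC-5231 is a mouse breast cancer cell line. All groups shared the same model, NIC-5231 cells implanted in a mammary fat pad of immunodeficient NSG mice aged 5 to 7 weeks. Once tumors could be felt, the animals were given, by injection into the peritoneum every 2 days, vehicle (saline with PEG and DMSO), C29 at 10 mg/kg, 5-azadC (decitabine) at 1 mg/kg, or C29 and 5-azadC together at those doses, with 5 mice per group. Genomic DNA of 2 mice was pooled for each library and 2 libraries were made per group, so the n of each group was 2 pools. Because host and tumor are both mouse, DNA of host cells and of the implanted cells cannot be told apart, and neither can a different cell mixture and a different methylation level within cells.

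In mammals, DNA methylation sits mainly on the cytosine of CpG dinucleotides. CpG-rich promoters are usually kept free of it, whereas the bodies of transcribed genes, coding exons included, are usually methylated on most copies. After each round of replication the maintenance enzyme DNMT1 copies the mark onto the new strand. 5-azadC is built into DNA and traps DNMT1, so methylation is lost as cells divide. ERRα is a nuclear receptor that controls genes of energy metabolism, and the study combined its inhibition with that of DNA methyltransferases. Reduced representation bisulfite sequencing (RRBS) reads short fragments that begin at CCGG sites, and 2382 of the 2390 exons (99.7%) held at least 1 such site.

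The sequences of 6 exons are given as examples of extreme values, not of typical exons. They show a loss with 5-azadC (Zbtb7a and Itgax), a further loss in the combination (Chrna2), a gain with 5-azadC (Ppfia4), a gain with C29 (Prdm11), and an exon that stayed unmethylated (Zfp771). Gains without overlap were seen at 0.0837% of exons with 5-azadC and 0.962% with C29, against 0.327% and 0.971% of all regions. Over all 2390 exons the combination mean was 1.78 points above that of 5-azadC. Each is the stretch around the measured cytosines, from the mm10 reference, written 5′ to 3′ on the coding strand, with CpGs that had a measured cytosine on either strand in capitals. For Zfp771 the first 110 bases of the measured stretch are shown, with 14 of its 35 measured CpGs.
Zbtb7a, chr10:81144796-81145007, plus strand: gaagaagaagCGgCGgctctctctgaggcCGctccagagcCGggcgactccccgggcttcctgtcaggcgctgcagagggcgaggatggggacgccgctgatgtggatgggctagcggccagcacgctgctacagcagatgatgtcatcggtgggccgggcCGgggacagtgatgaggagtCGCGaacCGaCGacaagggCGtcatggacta
Chrna2, chr14:66149071-66149135, plus strand: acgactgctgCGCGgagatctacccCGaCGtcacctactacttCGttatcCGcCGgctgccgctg
Itgax, chr7:128140496-128140574, plus strand: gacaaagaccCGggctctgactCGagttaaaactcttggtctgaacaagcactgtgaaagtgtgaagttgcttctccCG
Ppfia4, chr1:134299084-134299136, minus strand: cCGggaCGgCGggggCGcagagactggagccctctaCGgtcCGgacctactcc
Prdm11, chr2:92975550-92975620, minus strand: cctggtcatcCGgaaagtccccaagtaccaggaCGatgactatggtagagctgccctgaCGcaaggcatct
Zfp771, chr7:127253980-127254089, plus strand: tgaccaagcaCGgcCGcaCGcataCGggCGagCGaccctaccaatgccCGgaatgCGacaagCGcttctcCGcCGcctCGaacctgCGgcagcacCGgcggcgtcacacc

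The libraries held 51359825 to 81299065 reads over listed cytosines, with a median of 21 to 30 reads per cytosine. The unmethylated control sequence of the assay read 0.216% to 0.329% methylated and the methylated one 97.5% to 98.3%. Reads of an exon were summed over its cytosines, so a read that crosses several CpGs counts several times. Over the kept exons, the fewest summed reads in any library ranged upward from 30, with a median of 112. The spread between libraries was far above counting error: the mean squared difference between the 2 libraries of a group was 18.2 times what counting alone would give in both the vehicle and the C29 group, 21.0 times in the 5-azadC group and 20.8 times in the combination. At a typical exon the 2 libraries of a group differed by 6.10 percentage points (median) in vehicle and by 6.16 in C29 tumors, but by 10.2 under 5-azadC and 10.001 under both drugs. C29 library 2 stood below the other libraries without 5-azadC over the 287 exons with 10 or more measured cytosines, at 74.0% against 75.8% to 76.4%. Its values are given beside some of the results they touch.

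Distant coding exons were highly methylated in vehicle tumors and lost methylation in every tumor pool given 5-azadC. Averaged over the 2390 exons, vehicle library 1 read 79.95% and vehicle library 2 79.8%, while the C29 pair read 80.2% and 78.8%. It was 70.5% and 71.8% after 5-azadC and 72.8% and 73.03% after both drugs. The 4 libraries with 5-azadC lay below the 4 without it, with no overlap. The means were 72.0% ± 1.17 (SD, n = 4) with and 79.7% ± 0.581 (SD, n = 4) without the drug, a difference of -7.67 points, and the exact permutation test, two-sided over 70 arrangements, gave p = 0.0286, the smallest value that 4 against 4 allows.

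The C29 difference of this mean did not pass the test. The 4 libraries with C29 and the 4 without differed by 0.703 points (exact permutation test, two-sided, p = 0.629). That test leaves the 5-azadC difference inside both arms, and exchanging labels only within the libraries with and without 5-azadC, a test chosen after seeing the data, gave p = 0.278 (exact, 36 arrangements). The C29 libraries on their own lay on both sides of the vehicle libraries. Relative to vehicle, the mean changed by -8.75 points with 5-azadC and by -6.97 points with the combination. Both combination libraries were above both 5-azadC libraries, by 1.78 points in the mean, but 2 libraries against 2 cannot give an exact p below 0.333. The combination lost 2.16 points less than the sum of the changes with each drug alone, with an exact permutation p of 0.167 when C29 labels were exchanged only among libraries with, and among libraries without, 5-azadC (36 arrangements, smallest possible p 0.0556).

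**Figure D1:**
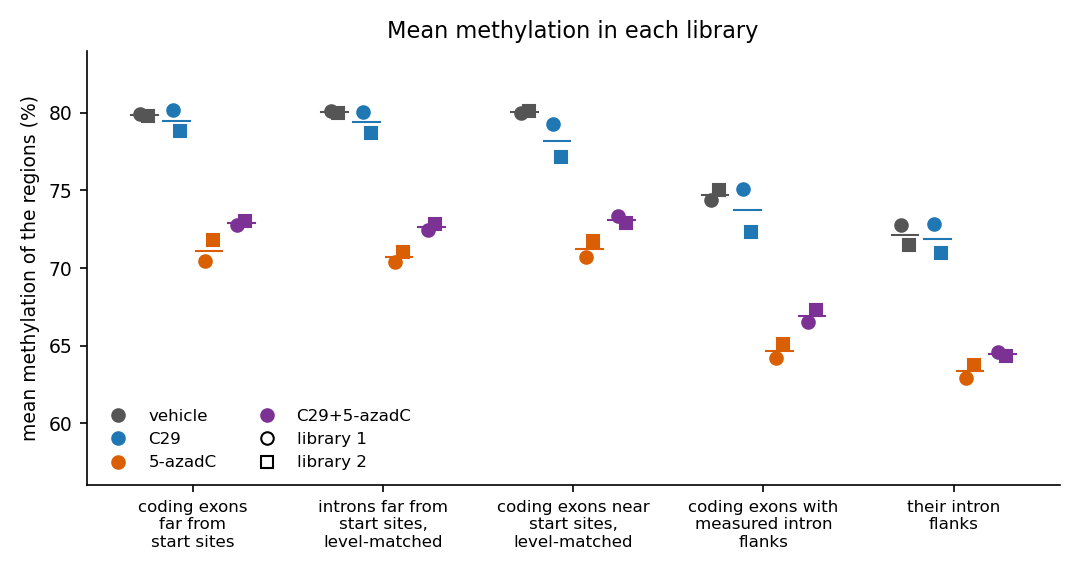
Mean methylation (%, axis from 56) of 5 sets of regions in each of the 8 libraries, colored by treatment, with circles for library 1, squares for library 2 and bars for the mean of each group. In every set the 4 libraries with 5-azadC sit below the 4 without it, and in the distant coding exons the combination libraries (72.8% and 73.03%) sit above the 5-azadC libraries (70.5% and 71.8%).

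Exons of low, intermediate and high methylation were all lower with 5-azadC. The 1414 exons with a mean of 80% or more over the 8 libraries went from 93.1% to 94.0% without 5-azadC to 84.7% to 87.0% with it, a difference of -7.60 points. The 879 exons between 20% and 80% went from 63.5% to 65.9% down to 54.5% to 57.8%, a difference of -8.31 points. The 97 exons under 20% went from 10.0% to 11.7% down to 7.13% to 8.83%, a difference of -2.91 points. In each of the 3 classes the groups did not overlap. These classes use the libraries with the drug as well, so they were also cut on the vehicle libraries alone, a choice made after seeing the data, and the other 6 libraries were compared. The 1580 exons at 80% or more in vehicle were at 92.04% and 91.03% in C29 tumors, 82.1% and 83.2% with 5-azadC and 84.3% and 84.6% with both drugs. The 712 intermediate ones were at 62.8% and 60.5%, 53.03% and 54.6%, and 55.5% and 55.9% in the same order. Those under 20%, 98 in number, were at 14.9% and 15.6%, 9.87% and 12.5%, and 14.02% and 11.03%. Between 5-azadC and C29 tumors the high class differed by -8.89 points, the intermediate class by -7.83 and the low class by -4.07, so the order of the high and intermediate classes depended on how they were cut.

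The loss was compared with that in introns at the same distance. Introns more than 4000 bp from start sites were cut into 7772 tiles of 1000 bp and weighted to the distribution of exon levels in 10 bins. Their mean fell by 8.05 points, so the exons lost 0.378 points less (exact permutation test over libraries, two-sided, p = 0.0857). At 222 exons whose own introns had measured cytosines within 1000 bp, the exons changed by -8.41 points and the flanks by -8.08, a difference of -0.325 points (exact permutation p = 0.571). The first difference depended on the setting: it was 0.466 points without 5-azadC library 1, 0.463 at 5 reads per cytosine and 0.516 beyond 10000 bp (exact permutation p = 0.0286 for each), and with medians in place of means it turned to -2.08 points (exact permutation p = 0.0286).

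Coding exons nearer to start sites were less methylated as a whole, with a mean of 38.4% to 40.3% in the libraries without 5-azadC over 6806 exons, and changed by -3.605 points. Once they were weighted to the same levels, the mean changed by -6.96 points, and the distant exons lost 0.712 points more (exact permutation test, two-sided, p = 0.257). With 5 or more cytosines per exon the weighted difference was -1.20 points and with medians -3.67 points (exact permutation p = 0.0286 for both). Without the weighting the distant exons lost 4.07 points more (exact permutation p = 0.0286). In the weighted near exons C29 library 2 was at 77.1% against 79.3% to 80.1% in the other libraries without 5-azadC, and without it the difference was -0.332 points.

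Along the coding sequence, methylation rose steeply with distance from the start site and then more slowly. In vehicle tumors the cytosines averaged 19.6% and 19.7% within 500 bp, 58.9% and 59.0% from 1000 to 2000 bp, 72.8% and 73.8% from 3000 to 4000 bp, just inside the excluded zone, and 74.4% and 74.3% from 4000 to 5000 bp, just outside it. From 10000 to 20000 bp it was 79.2% and 79.4%. The difference between the libraries with and without 5-azadC was larger in points far from the start site than close to it. It was -1.56 points within 500 bp, -6.60 points at 3000 to 4000 bp and -7.53 points at 10000 to 20000 bp. As a share of the mean without the drug these were -8.17%, -9.09% and -9.53%, a much narrower range. Neither measure moved steadily with distance. Beyond 50000 bp the difference was -7.02 points. Over all bins the share ran from -7.53% at 500 to 1000 bp to -9.77% at 6000 to 10000 bp. Within 500 bp the groups overlapped (exact permutation p = 0.0571). There C29 library 2 was at 17.9%, against 19.3% to 19.7% in the other libraries without 5-azadC.

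**Figure D2:**
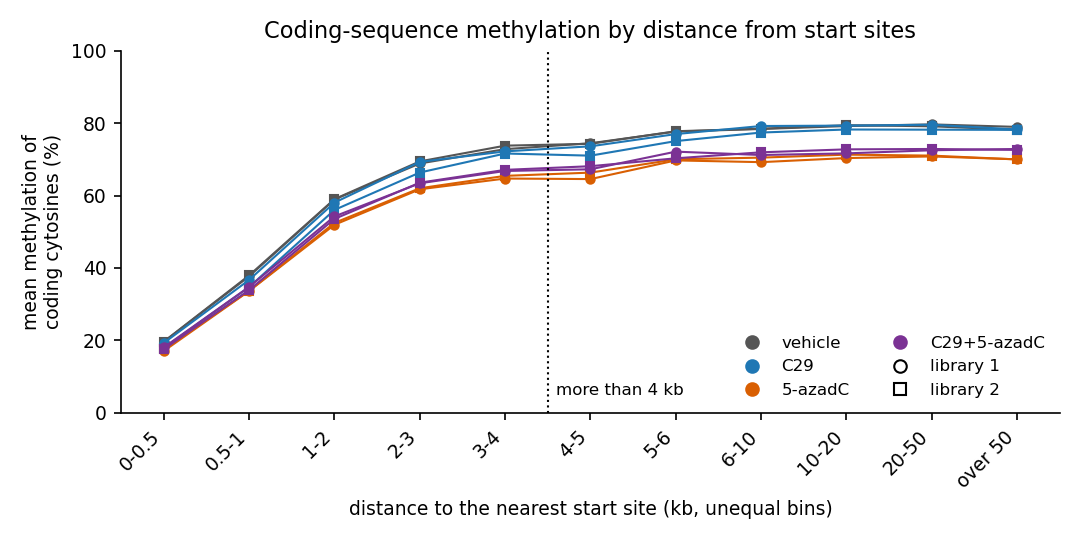
Mean methylation (%) of coding cytosines against distance to the nearest start site (kb, bins of unequal width), 1 line per library, with the 4 kb boundary dotted. The lines of the 4 libraries with 5-azadC run below the others from 1 kb outward, with a difference of -7.53 points at 10 to 20 kb.

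Loss was widespread over exons, although few exons changed by a large amount. The mean with 5-azadC was lower than the mean without it at 2026 of the 2390 exons (84.8%), against 68.0% of all regions, and the median difference was -7.24 points, against -2.08 over all regions. Distant intron tiles were close to the exons, with a lower mean at 81.4% and a median of -7.46 points. Among regions at 80% or more, 88.0% of distant and 89.0% of near coding exons had a lower mean, with a median of -7.23 points in each. The middle part of the exons, from the lower to the upper quartile, changed by -12.5 to -2.44 points. A fall of 20 points or more was seen at 190 exons and a rise of that size at 9. The shares of all regions past this threshold are not given here, so these counts only describe the exons. All 4 libraries with 5-azadC were below all 4 without it at 282 exons (11.8%) in 267 genes, against a background of 5.73% of all regions, and above them at 2 exons (0.0837%), against a background of 0.327%. Distant coding exons are mostly highly methylated, and the background depends on level: among regions at 80% or more the libraries did not overlap at 13.9% of distant coding exons, 12.6% of near coding exons, 12.4% of distant intron tiles and 10.0% of other tiles.

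**Figure D3:**
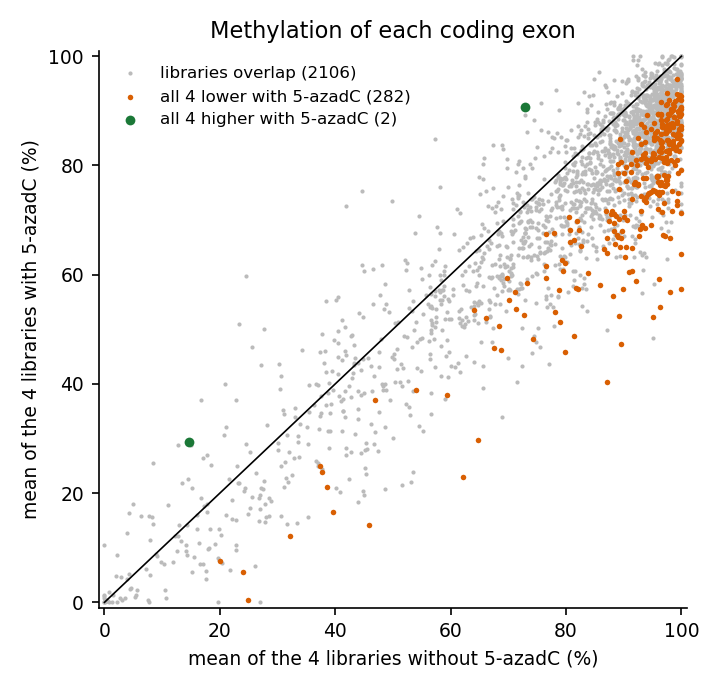
Methylation (%) of each of the 2390 coding exons, as the mean of the 4 libraries without 5-azadC (horizontal) and with it (vertical), with the line of equality. Orange points are the 282 exons where all 4 libraries with the drug were lower and green points the 2 where all 4 were higher. Most points lie below the line.

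No single exon passed either test that takes the spread between libraries into account. The edgeR quasi-likelihood test over all 54164 regions gave 0 exons at a Benjamini-Hochberg adjusted p under 0.05 for 5-azadC, C29 or their interaction (background 0% of regions in each), and limma gave 0 as well. At an unadjusted p under 0.05, edgeR gave 269 exons lower and 2 higher with 5-azadC, against backgrounds of 5.43% and 0.626% of all regions, and limma 489 lower and 10 higher, against 9.94% and 1.36%. For C29 edgeR gave 34 lower and 39 higher at that level, against backgrounds of 1.45% and 1.37%, and for the interaction 86 in either direction, against a background of 2.94%. Counts were also simulated with a spread between libraries set as a correlation of reads. Of 100 exons shifted by 35 points, edgeR recovered 11 at a correlation of 0.02 and 0 at 0.08. Which setting is nearest to the data was not determined. Its 0 calls therefore do not show that no exon changed. The smallest adjusted p of an exon for 5-azadC was 0.675. The exons named here are therefore descriptions of values, ordered by size, and not calls.

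The spread between libraries depended on reads and on the number of cytosines. At the 491 exons whose shallowest library had 30 to 59 summed reads, the median difference between the libraries of a group was 11.4 points and 4.89% of exons had all 4 libraries lower with 5-azadC. At the 446 exons with 240 or more summed reads these were 5.53 points and 18.8%. Exons with 3 or 4 cytosines differed by 9.87 points between libraries of a group and those with 10 or more by 5.17 points. The 5-azadC difference of the mean was -8.15 points in the former and -5.77 in the latter.

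There were 1344 exons with at least 100 reads, summed over cytosines, in each library, and the cytosine with the fewest reads in such an exon had a median of 14. Among them the largest fall without overlap was in coding exon 1 of Zbtb7a, which encodes a transcriptional repressor with zinc fingers. It read 94.5% and 78.3% with vehicle, 85.5% and 89.9% with C29, 67.3% and 20.2% after 5-azadC, and 12.8% and 61.0% after both drugs. The difference was -46.7 points (edgeR unadjusted p = 0.00257, adjusted p = 0.675). The libraries of both groups with 5-azadC disagreed widely, and within a library whole runs of cytosines shared a value. In the sequence given above, the cytosines read on the template strand of the CpGs at bases 11, 14 and 30 were all at 23.3% in 5-azadC library 1. The 6 cytosines on the coding strand, from base 162 to base 201, were all at 100% in that library and all at 0% in 5-azadC library 2 and combination library 1. The fewest reads per cytosine were 22 on the template and 11 on the coding strand. Leaving out single libraries moved the difference between -55.7 and -37.6 points. Coding exon 2 of the same gene was also lower in all 4 libraries with 5-azadC, with a difference of -13.2 points.

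Coding exon 5 of Chrna2, a subunit of neuronal nicotinic acetylcholine receptors, had similar means in the libraries of each group. It read 97.8% and 97.4% in vehicle tumors and 99.5% and 97.1% in C29 tumors. With 5-azadC it was at 85.3% and 82.6%, and with both drugs at 48.8% and 50.2%. The difference over the 4 and 4 libraries was -31.2 points (edgeR unadjusted p = 0.000882, adjusted p = 0.675). Both combination libraries were below both 5-azadC libraries, and the interaction had an edgeR unadjusted p of 0.0849 (adjusted p = 1). All 7 measured cytosines were on the template strand, with 31 reads in the shallowest library. As in Zbtb7a, they shared values: 6 of the 7 were at 48.9% in combination library 1, while library 2 had 4 at 32.3%, 2 at 61.3% and 1 at 100%.

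Coding exon 17 of Itgax, which encodes integrin αX (CD11c), a surface protein of dendritic cells and some macrophages, read 43.4% and 42.0% in vehicle and 83.3% and 80.02% in C29 tumors. After 5-azadC it read 13.3% and 21.6%, and after both drugs 30.1% and 27.1%. The exon was thus lower in all 4 libraries with 5-azadC, with a difference of -39.2 points (edgeR unadjusted p = 0.00729, adjusted p = 0.688), and the libraries with C29 were above their partner group without it in both settings. It rests on 3 cytosines, and they did not all follow this pattern. In the sequence given above, the cytosine at base 11 averaged 73.8% without and 19.5% with 5-azadC. That at base 23 averaged 69.5% and 3.92%. The cytosine at base 78, on the template strand, did not fall, at 43.2% without and 45.7% with the drug. Its vehicle libraries were at 50.5% and 2.63%. Only the cytosine at base 11 had the libraries with C29 above their partner group in both settings.

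Other large falls without overlap had wider gaps between libraries. Eif3c exon 14, from a subunit of a translation initiation factor, fell by 42.2 points, from 77.8% to 100% without 5-azadC to 26.8% to 69.3% with it. Mtmr12 exon 8, from a myotubularin-related protein, fell by 35.0 points, from 51.7% to 79.2% to 15.8% to 36.9%. Nexn exon 12, from the actin-binding protein nexilin, fell by 29.5 points, while Rbm26 exon 7, from an RNA-binding protein, differed by -30.2 points. Tmtc4 exon 3 was at 100% in all 4 libraries without 5-azadC and at 69.4%, 98.3%, 78.3% and 39% in the 4 with it, and its difference of -28.8 points was -18.01 without combination library 2. Rgma exon 3, from a repulsive guidance molecule, fell by 26.7 points, with 5-azadC libraries at 42.9% and 90.5%, and by 17.1 points without the first of these. Iqcn exon 1 fell by 26.4 points.

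The only exons higher in all 4 libraries with 5-azadC were in Grik5 and Ppfia4. Ppfia4 encodes liprin-α4, a scaffold protein of synapses, and its coding exon 28 read 11.7%, 14.5%, 18.6% and 13.5% without the drug and 34.2%, 31.1%, 23.1% and 29.3% with it, a difference of 14.9 points (edgeR unadjusted p = 0.0799, adjusted p = 0.845). At a minimum of 20 reads per cytosine this difference was 23.2 points, but only the cytosines of the coding strand remained. Those of the template strand had 18 reads in their shallowest library. On that strand the cytosine of the CpG at base 10 went from 27.6% without to 4.81% with 5-azadC, while the others rose. Grik5 encodes a kainate receptor subunit, and its exon 19 read 87.6% to 93.9% with 5-azadC and 48.6% to 86.3% without it. The lowest of these was C29 library 2, and without it the difference was 9.63 points in place of 17.7.

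**Figure D4:**
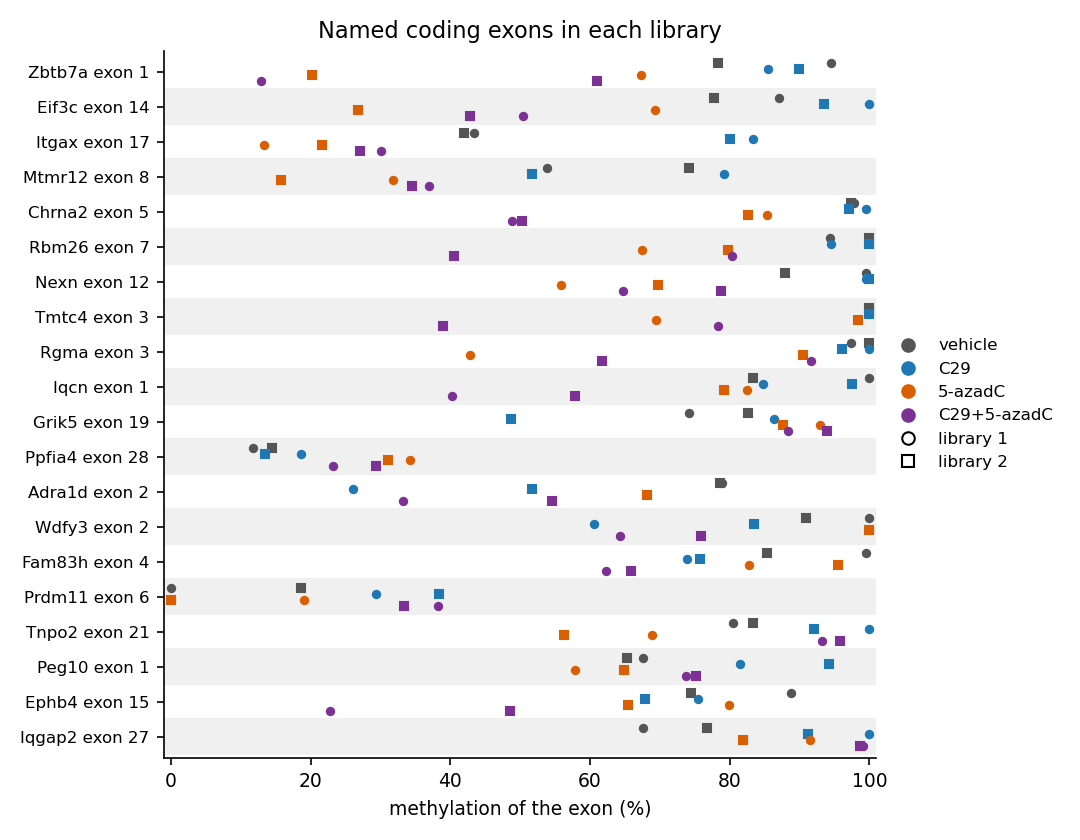
Methylation (%) of 20 named exons in each of the 8 libraries, colored by treatment, with circles for library 1 and squares for library 2. The Chrna2 libraries sit close together within each group, at 48.8% and 50.2% with the combination, whereas the Zbtb7a libraries with 5-azadC spread from 12.8% to 67.3%.

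With C29, exons without overlap were found in both directions, at shares close to those of all regions. The 4 libraries with C29 were below the 4 without it at 13 exons (0.544%; background 0.840%) and above them at 23 exons (0.962%; background 0.971%). Adra1d exon 2, from the α1D-adrenergic receptor, had the largest fall among well-covered exons, with 26.0% and 51.7% in C29 tumors against 78.9% and 78.6% in vehicle, and 33.2% and 54.6% with both drugs against 68.2% and 68.1% with 5-azadC, a difference of -32.1 points (edgeR unadjusted p = 0.0734). Wdfy3 exon 2, from an autophagy adaptor, differed by -26.7 points (edgeR unadjusted p = 0.0114) and Fam83h exon 4 by -21.4 points. Prdm11 exon 6, from a PR-domain protein, was 25.4 points higher with C29, at 29.3% to 38.4% against 0% to 19.0% without it. It rested on 3 cytosines with 35 or 36 reads in their shallowest library. Only that at base 34 of the sequence given above had all libraries with C29 above all without it. At base 11 C29 library 1 was at 27.6% and vehicle library 2 at 41.9%. At base 60 combination library 2 was at 0%. Tnpo2 exon 21, from a nuclear import receptor, was 23.0 points higher and Peg10 exon 1, from an imprinted gene that is expressed from the paternal copy, 17.2 points higher. Each of these 6 exons had an adjusted p of 1 in edgeR. When cytosines with 5 to 9 reads were added, 4 of them moved by more than 1.5 times: Adra1d to -8.43 points, Fam83h to -8.70, Prdm11 to 8.71 and Peg10 to 8.56.

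Reads pooled within each group were also compared in pairs with a logistic likelihood ratio test, taking an adjusted p under 0.01 over all regions and a difference of 25 points or more. This test counts each read as independent and leaves out the spread between libraries given above. C29 against vehicle called 43 exons lower and 43 higher, against backgrounds of 2.32% and 1.48% of regions. 5-azadC against vehicle called 179 lower and 16 higher, against 6.34% and 0.672%, and the combination against vehicle 168 lower and 24 higher, against 5.48% and 0.986%. The combination against 5-azadC called 91 lower and 102 higher, against 2.24% and 3.23%. The calls whose 2 libraries were also apart from the other 2 numbered 155 lower and 9 higher for 5-azadC (backgrounds 5.69% and 0.504%), 143 and 15 for the combination (4.71% and 0.746%), 35 and 35 for C29 (1.92% and 1.20%), and 62 and 80 for the combination against 5-azadC (1.74% and 2.69%). With edgeR in the same pairs 0 exons were called.

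The exons that differed most between combination and vehicle were those of Zbtb7a, Chrna2, Ephb4, Iqcn and Tmtc4 on the lower side and Iqgap2 and Prdm11 on the higher side. Ephb4 exon 15, from a receptor tyrosine kinase for ephrins, read 22.8% and 48.5% with the combination, against 88.8% and 74.4% with vehicle and 79.9% and 65.4% with 5-azadC. Iqgap2 exon 27, from a scaffold protein, read 99% and 98.7% with the combination and 67.6% and 76.8% with vehicle. Leaving out 1 library changed the Zbtb7a difference between -73.6 points (without combination library 2) and -25.4 points (without combination library 1), and that of Tmtc4 between -61.0 (without library 1) and -21.7 points (without library 2). The Prdm11 difference of 26.5 points lay between 17.2 and 35.8 points without single libraries and was 11.96 points with 5 reads per cytosine.

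Among single cytosines, fully methylated positions were fewer and partly methylated ones more frequent with 5-azadC. Of the 14368 cytosines, 53.2% to 59.1% were at 95% or more in the libraries without 5-azadC, 39.4% and 33.5% with 5-azadC alone, and 45.6% and 44.8% with both drugs. The share between 50% and 80% was 14.2% to 15.8% without the drug, 23.5% and 25.03% with it, and 20.4% and 20.8% with both. The share under 20% was 10.4% to 11.8% without and 12.3% to 14.3% with 5-azadC. A single cytosine was lower with 5-azadC in 67.4% of cases, and in 653 exons (27.3%) every measured cytosine was lower. The same shares over other regions are not given here, and 51.3% of the exons held only 3 or 4 measured cytosines.

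**Figure D5:**
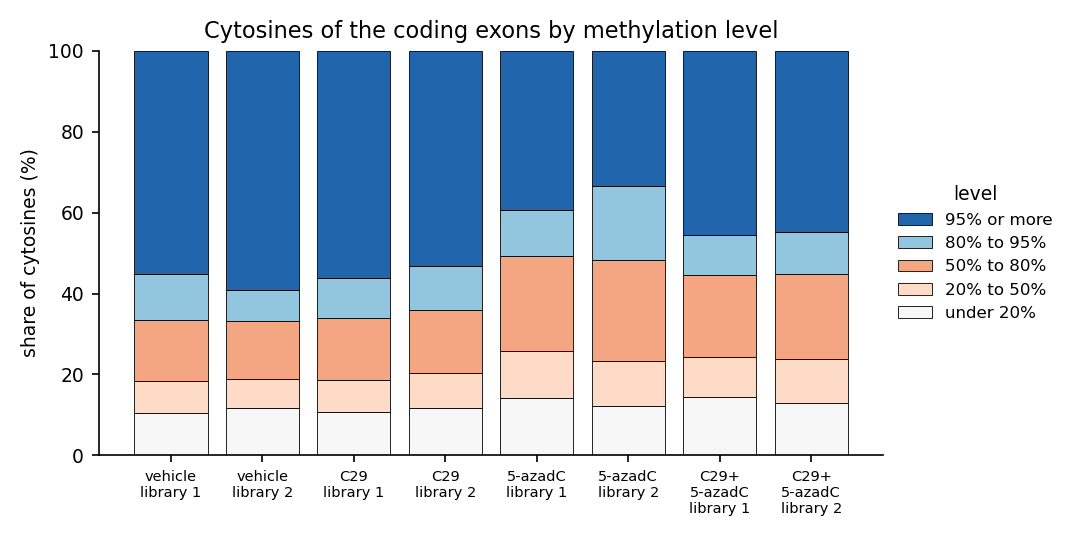
Share (%) of the 14368 cytosines in 5 classes of methylation level, 1 stacked bar per library. The class at 95% or more takes 53.2% to 59.1% of cytosines in the 4 libraries without 5-azadC and 33.5% to 45.6% in the 4 with it.

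The 6222 cytosines that were at 95% or more in both vehicle libraries were followed in the other 6 libraries, which had no part in that choice. In C29 tumors their mean was 94.2% and 93.3%, with 5-azadC 85.7% and 86.3%, and under both drugs 87.8% in each library. The share of these cytosines below 80% was 11.4% and 12.8% in C29 tumors, against 29.8% and 27.7% with 5-azadC and 24.2% and 24.4% under both drugs. At cytosines with 30 or more reads, 45.01% to 52.6% read exactly 100% in a library without 5-azadC and 26.3% to 36.4% in one with it.

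The strands of a CpG could be compared at 2067 CpGs where both cytosines were measured. The mean absolute difference between strands was 16.3 to 17.4 points without 5-azadC and 19.8 to 22.3 points with it, with no overlap of the libraries. Counting error is larger at partly methylated positions. With the counting error removed, the root mean square difference was 26.8 to 29.2 points without and 28.1 to 32.1 points with the drug, and the groups overlapped. Within an exon, the SD over cytosines was 15.8 to 16.5 points without 5-azadC and 17.6 to 19.9 points with it.

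The 598 exons with the highest GC content, above 61.02%, were at 68.8% to 72.2% without 5-azadC and changed by -6.26 points, whereas the others, in 3 classes of GC content, were at 79.9% to 84.4% and changed by -8.38 to -7.999 points. CpG observed over expected is the ratio of the CpG count to that given by the base composition. The 598 exons with the lowest ratio changed by -8.91 points and the 598 with the highest by -6.14. By the bases around the CpG, the change ran from -4.20 points in GCGC (909 cytosines) and -4.95 in GCGG (1147) to -9.09 in ACGA (469) and -9.21 in ACGT (426). C29 library 2 was at 70.4% in GCGC, against 75.05% to 75.97% in the other libraries without 5-azadC, and the groups overlapped in that context (exact permutation p = 0.0571). In GCGG C29 library 2 was at 75.5%, against 76.9% to 77.8% in the other libraries without 5-azadC. Differences between contexts were not tested. Cytosines in CGN codons, which encode arginine, were at 78.8% to 80.3% without the drug and changed by -7.06 points, those in NCG codons by -6.61 and those that span codons by -6.83. The coding strand changed by -6.96 and the template strand by -6.76 points.

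The 637 last coding exons changed by -6.49 points and the 1753 others by -8.10. The 122 exons over 50000 bp from a start site changed by -6.31 points and the 626 from 6000 to 10000 bp by -8.13. On each of the 19 autosomes the 4 libraries with 5-azadC were below the 4 without it, with differences from -9.40 points on chromosome 9 to -6.05 on chromosome 13.

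The 97 exons under 20% were a minority of 4.06%, and they were richer in CpG, with a median observed over expected of 0.696 against 0.553 in the exons at 80% or more, and 49.5% of them were last coding exons against 26.1%. Among exons with 10 or more cytosines the least methylated were those of Pura, Prr7, Ano8, Ccdc92b and Zfp771. Pura, which encodes a nucleic acid-binding protein in a single coding exon, was at 0% in 7 libraries over 32 cytosines, 6154 bp or more from the nearest start site. Zfp771, a zinc finger gene, was at 0% to 0.859% in all 8 libraries over 53 cytosines, and Ano8 exon 18 at 0% to 1.41%. The most methylated were in Arid1b, a chromatin remodeling subunit, Rbm47, Dcaf5, Dsp, which encodes the desmosomal protein desmoplakin, and Plec, which encodes plectin. Dsp exon 24 read 98.7% to 100% without 5-azadC and 94.75% to 97.8% with it, and Plec exon 32 95.2% to 99.4% without and 92.5% to 99.03% with it.

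Several genes contributed many exons, and their exons differed from each other. Speg, a muscle kinase, had 8 exons with mean levels from 40.2% to 78.5%, a gene mean of 73.3% in vehicle, 72.6% in C29, 67.1% in 5-azadC and 65.1% in combination tumors, and libraries that overlapped. Lrp1, an endocytic receptor, had 6 exons and a gene mean of 97.0%, 91.7%, 81.0% and 83.3% in the same order, and its 4 libraries with 5-azadC were all lower, although none of its single exons was without overlap. Ttn, the giant muscle protein titin, had 6 exons and 85.9%, 89.8%, 78.4% and 82.5%, also without overlap. Ryr1, the calcium release channel of muscle, had 6 exons from 6.42% to 80.8%, and Tenm3, a teneurin, 5 exons from 43.3% to 83.8%, and in both the libraries overlapped.

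Exons of gene lists are set beside all 2390 exons, of which 84.8% had a lower mean with 5-azadC and 11.8% had all 4 libraries lower, with a median difference of -7.24 points. Over all regions these were 68.0%, 5.73% and -2.08 points, and over distant intron tiles 81.4%, 9.53% and -7.46 points. Nothing particular to a list was tested. Of 34 exons in 20 collagen chain genes, 28 had a lower mean with 5-azadC, the median difference was -7.10 points, and 5 had all 4 libraries lower. The 5 were in Col4a3, a basement membrane chain with 2 such exons, Col4a2, Col12a1 and Col7a1. Col12a1 exon 8 read 100%, 100%, 97.5% and 96.3% without the drug and 87.5%, 91.6%, 90.1% and 96.0% with it. Col6a6 exon 7 ran the other way in the combination only, at 80% and 69.2% against 13.0% to 33.0% in the other 6 libraries, with 42 reads in its shallowest library (edgeR unadjusted p of the interaction 0.0599). Among 17 exons of laminins and other basement membrane proteins, 11 had a lower mean and 1 was lower in all libraries, that of Fn1, fibronectin, at 96.2% to 100% without and 74.7% to 95.4% with 5-azadC.

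Exons of receptors, guidance and adhesion genes followed. All 4 exons of Notch2 and Notch3, receptors of cell-to-cell signaling, had lower means. The last exon of Notch2, with 14 cytosines and 583 reads or more, read 97.1%, 96.0%, 95.5% and 97.1% without 5-azadC and 84.2%, 82.2%, 87.8% and 78.6% with it (edgeR unadjusted p = 0.0317, adjusted p = 0.796). All 10 exons of semaphorins and plexins, guidance ligands and their receptors, had lower means, with a median of -10.3 points, and none was without overlap. Of 22 cadherin and protocadherin exons, 18 had lower means and 3 did not overlap, in Dchs2 and Fat1. Of 40 exons of calcium, sodium and potassium channels, 27 had lower means, with a median of -5.55 points, and 2 did not overlap. Cacna1a exon 19, a calcium channel subunit, stood out on the other side with 35.7% to 62.2% with 5-azadC and 0% to 50% without it.

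Of 21 exons of lysine methyltransferases and demethylases, 16 had lower means, with a median of -6.19 points, and 3 did not overlap, in Setdb1, Kmt2a and Nsd1. Prdm13 had the exon with the most cytosines of all, 75, and read 63.9%, 62.5%, 63.2% and 43.8% without 5-azadC and 53.0% to 63.4% with it, so that C29 library 2 was the lowest. Of the DNA methylation enzymes only Tet2 and Tet3, which oxidize methylcytosine, had a member exon. Tet3 exon 11 read 100% in both vehicle libraries, 95.1% and 88.8% in C29 tumors, 79.2% and 66.4% after 5-azadC, and 83.3% and 92.9% after both drugs (edgeR unadjusted p for 5-azadC 0.00128, adjusted p = 0.675). Of 28 exons of developmental transcription factors, 21 had lower means and 3 did not overlap, in Gata3, Pax1 and Foxk1. Foxo6 exon 2, with 71 cytosines, read 42.5% in C29 library 2 and 65.97% to 80.6% in the other 7. Of 63 zinc finger exons, 54 had lower means, the median was -6.30 points, and 9 did not overlap, 2 of them in Zbtb7a.

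The genes of the pathways that the drugs address were sparsely covered. Of the ERR receptors, PGC-1 coactivators and methionine cycle enzymes, Ppargc1b, which encodes the coactivator PGC-1β, was the only gene with member exons, and its 3 exons had differences from -8.89 to -2.67 points with overlapping libraries. All 10 exons of growth factor signaling kinases had lower means, with a median of -10.4 points, and 1 did not overlap, in Map3k5. Src exon 10, from the proto-oncogene kinase, read 92.3% to 99.7% without and 71.4% to 93.2% with 5-azadC. Of 10 exons of tumor suppressors, 9 had lower means, with a median of -6.09 points, and 1 did not overlap, in Smarca4. Cdh1 exon 3, from E-cadherin, read 100%, 99.6%, 91.8% and 96.6% without the drug and 77.2%, 89.8%, 85.2% and 91.9% with it.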

How the data were processed

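RRBS libraries of 8 pools of tumor DNA were analyzed, 2 per group. Per the labels and the methods of the study, reads were aligned to mm10 with Bismark 0.20.0 and compared with methylKit 1.7.0; Trim Galore 0.4.1 and FastQC 0.11.8 are listed in the submitters' processing notes. The authors deposited, for each cytosine and strand, the fraction of reads that were methylated. They also deposited the count of reads. Removal of duplicate reads is not described in the sources used here. Methylated reads were the fraction times the count, whole within 0.01 reads at 99.9997% or more of the cytosines of each library. RRBS fragments share their start sites, so copies of 1 molecule cannot be separated. Permutation, edgeR and limma p-values measure the spread between pools, and logistic p-values counting error only.

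Cytosines with 10 or more reads in all 8 libraries were assigned to CDS exons (overlapping intervals merged) or tiles of 1000 bp, and regions with 3 or more were kept. The value of an exon was the mean of its cytosines' percent methylation, and that of a library the mean over exons, compared by exact permutation. Levels for classes and weights were means of all 8 libraries. Pooled counts were compared by logistic likelihood ratio. The edgeR 4.0.16 quasi-likelihood model was fitted to all 8 libraries, with limma 3.58.1 as an alternative, and p-values were adjusted by Benjamini-Hochberg over 54164 regions. Exons were named by a rule: the largest differences without overlap at 100 or more reads, the largest combination calls, the genes with the most exons, the extremes of level, and up to 3 genes per list by number of cytosines. The genes named for exons without overlap within a list, and the second exon of Zbtb7a, were chosen after their values were seen. The members and gene lists were chosen with earlier results of these data known. The steps were tested on simulated counts with added spread between libraries, set as a correlation of reads (0 is counting error only). At 0.005, edgeR recovered 80 of 100 exons shifted by 20 points and 100 of 100 shifted by 35. At 0.02 it recovered 1 and 11 of 100, and at 0.08 it recovered 0 of each. A count of 0 in edgeR therefore does not show that no exon changed. Python 3.11.15, numpy 2.4.6, scipy 1.17.1, pandas 2.3.3, pysam 0.24.0 and R 4.3.3 were used. Sequences came from the RefSeq copy of GRCm38 (mm10), in which all measured positions were cytosines of CpGs. Alternatives changed the minimum of reads and of cytosines, the distance, the weighting, the test and the libraries. Some exons are not named here.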

Additional observations from a re-analysis of the deposited data

Results flagged for a closer look

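With 2 libraries per group, a search for single libraries far from the rest of their group was not possible. Among the named exons, 3 had C29 libraries on opposite sides of their partner group without and with 5-azadC. At Tet3 exon 11 the 2 C29 libraries were below both vehicle libraries, with a difference of -8.05 points, and the 2 combination libraries above both 5-azadC libraries by 15.4 points, so the effects of C29 differed by 23.4 points (edgeR interaction, unadjusted p = 0.00163, adjusted p = 1). At Setd1b exon 6 the effects were -4.15 and 15.9 points and differed by 20.1 points (unadjusted p = 0.275, adjusted p = 1 in edgeR). At Zfp467 exon 4 they were -4.07 and 1.75 points and differed by 5.83 points (unadjusted p = 0.339, adjusted p = 1 in edgeR). None of the 3 differences passed the adjustment over all regions.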

How the results depend on the processing

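The loss of mean methylation with 5-azadC was negative under every alternative, and between -8.01 and -7.15 points when single libraries were left out. Within replicate numbers (replicate block) it was the same -7.67 points, with an exact permutation p = 0.0556, the smallest that 36 arrangements allow. The C29 difference ranged from -0.977 to 2.19 points without single libraries. Leaving out C29 library 1 (-0.614), C29 library 2 (-0.176), 5-azadC library 1 (-0.977) or 5-azadC library 2 (-0.533) turned its sign; these leave the groups with unequal numbers of 5-azadC libraries. The difference between exons and introns was 0.463 points at 5 reads and 0.516 points beyond 10000 bp (exact permutation p = 0.0286 for both), 0.242 to 0.466 without single libraries (exact permutation p = 0.0286 without 5-azadC library 1), -2.08 with medians and -0.325 against own flanks, a setting chosen after seeing the data. The difference between far and near exons was -1.20 points with 5 cytosines, -3.67 with medians and -4.07 without weighting (exact permutation p = 0.0286 for each; the last chosen after seeing the data), and -0.995 to -0.332 without single libraries. A mean over genes and averaged strands, also chosen after seeing the data, changed neither drug's call. Exchanging C29 labels only within the libraries with and without 5-azadC kept 0.703 points (exact permutation p = 0.278).

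Counts of exons called from pooled reads depended on the settings. The minimum of reads or of cytosines also changed how many exons were tested. Shares over all regions were not computed under these settings, so the counts are not a result about the exons. For C29 against vehicle, in place of 86, they were 22 at 20 reads, 23 at 5 cytosines, 466 at 10 points, 124 to 168 with a library left out, and 0 in edgeR. For 5-azadC against vehicle, in place of 195, they were 77, 57, 1027, 247 to 361, and 0. For the combination against vehicle, in place of 192, they were 62, 63, 864, 228 to 311, and 0. For the combination against 5-azadC, in place of 193, they were 53, 50, 809, 246 to 326, and 0. The edgeR counts of 0 for 5-azadC, C29 and interaction became 271, 73 and 86 at an unadjusted p under 0.05 and stayed at 0 with limma, at 5 and 20 reads, without single libraries and with the replicate block. Deviations of libraries with the same number correlated between -0.0304 and 0.0561 over exons, so the numbers did not pair the samples, and the block changed no other call. Among named exons, only those with the largest differences without overlap and the largest combination calls were recomputed under these alternatives. The other named exons were not, so their stability is not known. None of the recomputed exons changed sign. Of their recomputed values, 231 stayed within the spread between libraries and 7 moved by more. The cause of these changes was not tested.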

Other observations

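The X chromosome was outside the rule. The same criteria gave 40 X-linked coding exons with 230 cytosines. Their mean was 83.2% and 76.9% with vehicle, 79.8% and 82.1% with C29, 77.1% and 72.4% with 5-azadC, and 71.7% and 74.1% with the combination. The 4 libraries with 5-azadC were at 73.8% ± 2.42 (SD, n = 4) and the 4 without it at 80.5% ± 2.79 (SD, n = 4), a difference of -6.65 points, with 1 library with the drug above 1 without it. Of the 40 exons, 32 had a lower mean with 5-azadC and 3 had all 4 libraries lower.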
